A study of Rattus norvegicus with 40 samples.

Results

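The L4 dorsal root ganglia (DRGs) of sham-operated rats were compared between the operated (ipsilateral) and the other (contralateral) side, across all genes on the array. The arrays were chosen by their labels alone (sham procedure, L4 DRG, side), which gave 5 ipsilateral and 5 contralateral arrays, 10 of the 40 in the series. The rats were male Sprague-Dawley, and the DRGs were taken 4 weeks after surgery. Sham rats had the left L6 transverse process removed like the rats with spinal nerve ligation (SNL), but no nerve was ligated. The question is what this surgery alone did to the L4 DRG. Both sides came from the same 5 rats, no unoperated rat was included, and RNA was purified from single DRGs. The side differences of 2 other DRGs are set beside those of sham L4: the L5 DRG of the same sham rats, and the L4 DRG of 5 rats with SNL, whose own nerve was left intact while the L5 nerve was ligated. Each of these has 10 arrays, 5 a side.

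A DRG holds the cell bodies of the sensory neurons of one spinal nerve. Satellite glia wrap each cell body, Schwann cells myelinate or bundle the axons, and fibroblasts, vessels and resident macrophages fill the space between. Sham surgery opens skin and muscle beside the spine without tying the nerve, and some neuropeptides and transcription factors are well known to be induced in sensory neurons whose axons are damaged. RNA of a whole DRG was measured, so fewer cells of a type and less RNA per cell cannot be told apart.

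Signals are linear MAS 5 values in arbitrary units. Tests were run with limma on log2(signal + 16), which shrinks the fold change of dim genes, and a probe set was called at an adjusted p under 0.05. The labelled tissue was checked against marker genes. *Snap25* (mean signal 3849 on ipsilateral and 2269 on contralateral arrays), *Uchl1* (3203 and 2184) and *Prph* (2153 and 1570), all abundant in sensory neurons, were among the brightest genes of both sides. *Isl1*, a transcription factor of these neurons, was dim (44.0 and 50.3). Of the muscle genes *Ckm* had mean signals of 28.4 and 27.9 and *Myh4* of 19.4 and 10.8, and the fat gene *Plin1* had 12.9 and 8.62, whereas *Acta1* of muscle (128 and 139) and *Adipoq* of fat (52.2 and 42.3) were brighter. None of these 5 genes was called. Central glia genes were near the floor, with *Mog* at 15.9 and 11 and *Aqp4* at 15.9 and 10.2.

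The arrays of the sides stood apart in ways that are not gene specific. The median signal of an array was 36.1 to 38.9 on ipsilateral arrays and 30.7 to 32.7 on contralateral arrays. GAPDH, whose 3′ over 5′ probe set ratio goes up as RNA degrades, had a log2 ratio of 1.72 ± 0.08 on ipsilateral and 1.29 ± 0.12 on contralateral arrays (SD, n = 5). The 3′ probe set averaged 2953 and 2322 without overlap of the sides, and the 5′ probe set averaged 896 and 945 with overlap. The ratio thus differed mainly through the bright 3′ probe set. The same ratio of beta-actin overlapped between the sides, at 4.57 ± 0.24 on ipsilateral and 4.79 ± 0.20 on contralateral arrays (SD, n = 5). Bacterial control RNA added to each array averaged 10.4 ± 0.09 on ipsilateral and 9.30 ± 0.22 on contralateral arrays (log2 signal, SD, n = 5). For the array median, the GAPDH ratio and the bacterial controls every ipsilateral array lay above every contralateral one (exact permutation test, two-sided, p = 0.00794 each, the smallest p that 5 against 5 arrays can give). The array names in the labels number the arrays of each side consecutively. Side therefore cannot be told apart from array order, the GAPDH ratio or the level of the added controls in these 10 arrays, and their part in the results below was not tested.

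**Figure D1:**
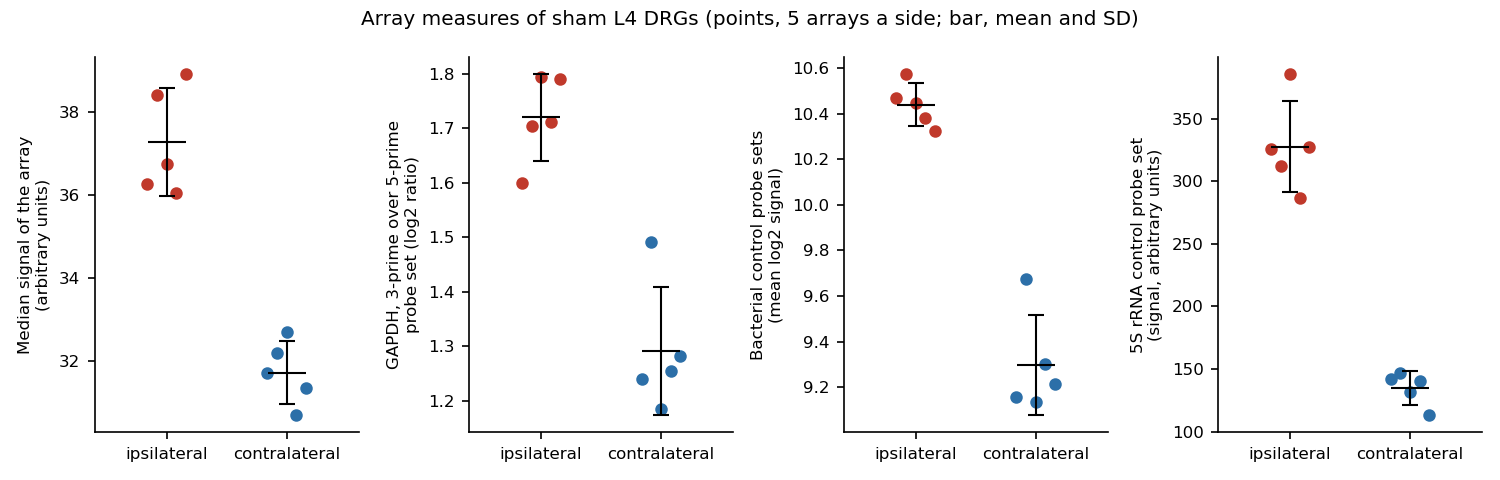
Median signal, log2 GAPDH 3-prime to 5-prime ratio, mean log2 signal of the bacterial controls and signal of the 5S rRNA control probe set on each sham L4 array, ipsilateral left and contralateral right. Points are the 5 arrays of a side and bars are mean and SD; in all 4 panels the sides do not overlap, with array medians of 36.1 to 38.9 ipsilaterally and 30.7 to 32.7 contralaterally.

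Sham surgery without ligation was accompanied by many side differences, most of them small. Of 31042 probe sets, 8413 were called (27.1%), 5355 higher (17.3%) and 3058 lower (9.85%) on the ipsilateral side. Most were under 1.5-fold, and the larger calls numbered 1594, with 1488 up and 106 down. The split of the calls depended on the scaling. After quantile normalization 5609 were called (18.1%), 2803 higher (9.03%) and 2806 lower (9.04%). After scaling every array to the same median 11704 were called (37.7%), 3152 higher (10.2%) and 8552 lower (27.5%). The median log2 difference over all probe sets was 0.06 as deposited, -0.02 after quantile normalization and -0.07 after median scaling. On deposited and quantile-normalized signals alike, 2567 probe sets were called higher (8.27%) and 1812 lower (5.84%). The sides did not overlap for 5647 probe sets (18.2%), with the ipsilateral side above for 3687 (11.9%) and below for 1960 (6.31%).

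Over the 14217 genes that the probe sets name, each represented by its brightest probe set, 3774 were called (26.5%), 1824 higher (12.8%) and 1950 lower (13.7%). After quantile normalization 2553 were called (18%), 1014 higher (7.13%) and 1539 lower (10.8%), and after median scaling 6301 (44.3%), 899 higher (6.32%) and 5402 lower (38%). In all, 872 genes (6.13%) rose and 1081 (7.6%) fell on both scales. Other probe sets of a gene often gave no call. Of the 872 genes that rose on both scales 386 had other probe sets, and another was called higher for 79 of them, another was called lower for 43 and no other was called for 267. Of the 1081 that fell 365 had other probe sets, with another called lower for 49 and another called higher for 57. Probe sets with several or no gene symbol were called higher more often (27.0%, against 5.66% lower) than those with 1 symbol (12.5%, against 11.9% lower).

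Direction followed brightness on the deposited signals. In the dimmest quartile of probe sets, with mean signals up to 12.4, 919 were called higher and 45 lower. In the brightest quartile, with mean signals above 113, 1091 were called higher and 1995 lower. Quantile normalization evened this out, to 176 higher and 174 lower in the dimmest quartile and 974 higher and 1093 lower in the brightest. Some of the brightest genes were higher as deposited only. *Nefl*, the light neurofilament, had mean signals of 4470 on ipsilateral and 2659 on contralateral arrays and *Pmp22*, a myelin protein, had 4967 and 2967. Both had a log2 difference of 0.75 as deposited, and both had -0.01 after quantile normalization.

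**Figure D2:**
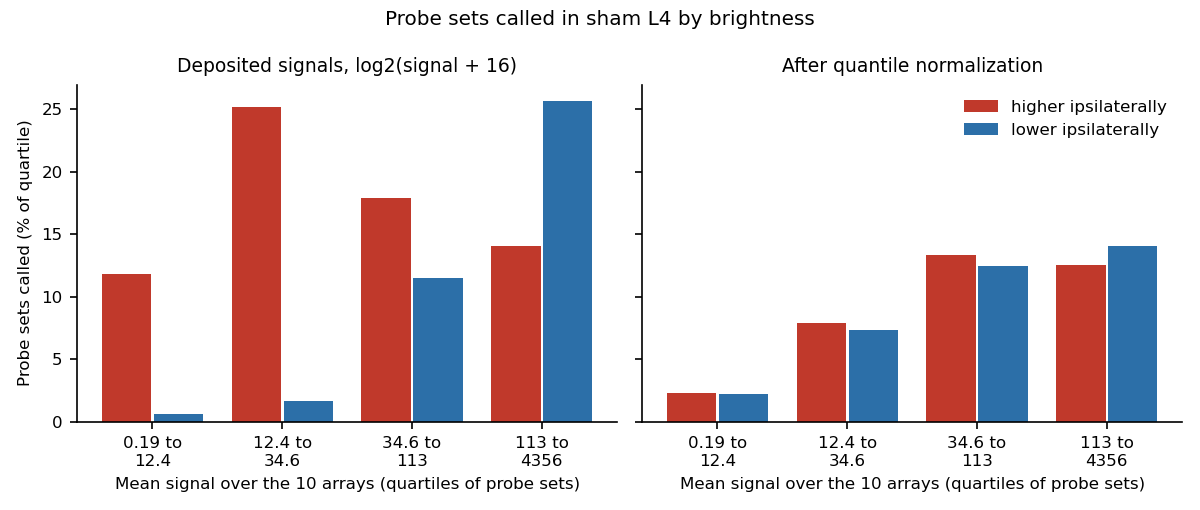
Share of probe sets called higher and lower on the ipsilateral side of sham L4, by quartile of mean signal over the 10 arrays, on deposited signals (left) and after quantile normalization (right). On deposited signals 11.8% of the dimmest quartile were called higher and 0.58% lower, against 14.1% and 25.7% in the brightest; after normalization the bars of each quartile are nearly equal.

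The gene with the largest rise by the rule for named genes was *Npy*, which encodes neuropeptide Y, a peptide transmitter that sensory neurons are known to make after axon damage. Its signals were 129, 124, 155, 130 and 122 on the ipsilateral arrays of rats 1, 14, 17, 22 and 23, against 26.1, 34.8, 33.0, 24.7 and 27.3 on their contralateral arrays. Every ipsilateral array was above every contralateral one, and both sides were narrow. The log2 fold change was 1.71 (SE 0.10, adjusted p = 9.19e-09 from limma), and 1.67 after quantile normalization. *Vip*, the vasoactive intestinal peptide, another neuropeptide known from injured sensory neurons, was far dimmer. It had 26.1, 18.8, 23.8, 27.0 and 21.8 on the ipsilateral side, against 3.51, 3.26, 1.12, 0.434 and 4.74 on the contralateral side. The sides did not overlap, but the contralateral values are at the floor of the arrays and the log2 fold change of 1.09 (SE 0.11, adjusted p = 3.58e-06 from limma) depends on the offset of 16.

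Since both peptide genes rose on the ipsilateral side of sham L4, the 300 bases around their start sites are shown (250 before to 50 after the start, RefSeq, GRCr8, plus strand). *Npy* lies at chr4:80211861-80212160 and *Vip* at chr1:44470230-44470529. Capitals mark the letters ATAAAA, as in a TATA-like box, and TGACG, the core of a cAMP response element, both searched on both strands.
Npy: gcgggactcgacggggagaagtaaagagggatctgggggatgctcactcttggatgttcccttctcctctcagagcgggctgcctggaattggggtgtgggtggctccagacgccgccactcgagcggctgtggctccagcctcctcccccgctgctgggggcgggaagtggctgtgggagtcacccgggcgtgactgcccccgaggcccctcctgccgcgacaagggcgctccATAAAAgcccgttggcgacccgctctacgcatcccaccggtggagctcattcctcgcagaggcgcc
Vip: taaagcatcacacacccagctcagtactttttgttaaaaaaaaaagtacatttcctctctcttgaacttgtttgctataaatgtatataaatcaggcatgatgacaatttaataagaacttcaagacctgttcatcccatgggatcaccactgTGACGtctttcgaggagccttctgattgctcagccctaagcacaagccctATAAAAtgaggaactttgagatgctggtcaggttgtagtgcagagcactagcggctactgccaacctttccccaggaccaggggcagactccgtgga

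The *Npy* window held ATAAAA starting 16 bases before the annotated start and no TGACG. The *Vip* window held ATAAAA starting 47 bases before the start and TGACG starting 97 bases before it. Of 27457 rat promoters of this length 20.4% held ATAAAA and 22% held TGACG on either strand, so neither is rare. A match describes the letters of the window and says nothing of binding in these DRGs.

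*Sall4*, a zinc finger factor known from stem cells, had 235, 246, 275, 256 and 239 on the ipsilateral side against 95.5, 96.9, 87.7, 75.8 and 66.1 on the contralateral side, a log2 fold change of 1.42 (SE 0.09, adjusted p = 2.60e-08 from limma). Its relative *Sall1* had 162, 151, 178, 174 and 165 against 61.4, 54.4, 58.4, 54.9 and 49.5 (1.34, SE 0.08). *Pou3f3*, a POU domain factor of the nervous system, had means of 110 ± 10.5 and 32.3 ± 2.43 (SD, n = 5, log2 fold change 1.39). *Gata3*, a factor of lymphocytes and sympathetic neurons, had 124 ± 16.6 and 45.3 ± 8.04 (SD, n = 5, log2 fold change 1.19), and its other probe set was called higher too (0.52). For these 4 genes the sides did not overlap, and the differences after quantile normalization were 1.17 to 1.47. Contralateral SNL L4 arrays, from other rats, averaged 201 for *Sall4*, 164 for *Sall1*, 112 for *Pou3f3* and 151 for *Gata3*, all above contralateral sham L4. The 5S rRNA control probe set averaged 135 on contralateral and 328 on ipsilateral sham L4 arrays, and 782 on contralateral SNL L4 arrays. Whether the rises of these genes came from the surgery was not tested.

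*Pdgfrb*, the receptor for platelet-derived growth factor on pericytes and fibroblasts, had 267, 272, 295, 257 and 241 on the ipsilateral side against 62.4, 83.6, 69.6, 87.9 and 87.5 on the contralateral side. This was a log2 fold change of 1.59 on its brightest probe set, with 1.15 (called) and -0.29 (not called, adjusted p = 0.205 from limma) on the others. Its probe sets therefore do not give one answer. *Nars2*, a mitochondrial asparaginyl-tRNA synthetase, had 264, 233, 311, 245 and 287 against 94.6, 84.6, 91.2, 93.9 and 87.9 (log2 fold change 1.41, SE 0.08, adjusted p = 7.73e-09 from limma). *Camk2n1*, an inhibitor of the kinase CaMKII, had means of 303 ± 32.3 and 104 ± 3.58 (SD, n = 5, log2 fold change 1.41), but its other probe set, with mean signals of 8.16 and 4.51, was not called. The sides did not overlap for any of these 3 genes on the brightest probe set.

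The other rises were those of 4 genes. *Nlgn2*, a postsynaptic adhesion protein of inhibitory synapses, had 113 ± 12.6 and 46.1 ± 3.99 (SD, n = 5, log2 fold change 1.05), and *Gpatch4*, a nucleolar protein, had 262 ± 17.4 and 115 ± 18.8 (1.10). The other probe set of *Nlgn2* and the other 3 of *Gpatch4* were not called. *LOC102548331* (1.25) and *LOC102554214* (1.05) have no named function in the tables used here.

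The 12 falls named by the rule were smaller than the 12 rises. The rule asks for sides that do not overlap and a mean signal above the median of all genes, and the largest fall under it was that of *Mfap4*, a microfibril-associated matrix protein, with 63.4, 60.4, 50.2, 56.3 and 71.6 on the ipsilateral side against 134, 118, 114, 108 and 125 on the contralateral side. Its log2 fold change was -0.83 (SE 0.09, adjusted p = 6.23e-06 from limma). *Pmp2*, a fatty acid binding protein of peripheral myelin, had 162, 170, 147, 188 and 173 against 311, 289, 301, 322 and 308 (log2 fold change -0.81, SE 0.06, adjusted p = 3.82e-07 from limma). In both genes the highest ipsilateral array lay well below the lowest contralateral one.

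*Tagln*, an actin-binding protein of smooth muscle, had 86.7, 83.5, 92.2, 103 and 85.2 on the ipsilateral side against 155, 175, 165, 183 and 173 on the contralateral side (log2 fold change -0.81). *Synj1*, a lipid phosphatase of synaptic vesicle recycling, had 228, 234, 190, 261 and 269 against 324, 478, 388, 436 and 402 (-0.74). *Secisbp2l* fell by 0.75 on its brightest probe set and by 0.58 on the other, both called. *Ogn*, osteoglycin of the matrix, fell by 0.68, and 2 of its other 3 probe sets were called lower. These 4 genes did not overlap between the sides on the brightest probe set.

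The other falls among the 12 largest were those of *Ciao2b*, of iron-sulfur cluster assembly (log2 fold change -0.75), *Sult1a1*, a sulfotransferase (-0.73), *Aga*, a lysosomal enzyme (-0.69), *Serpinf1*, a secreted serpin of fibroblasts (-0.69), *Fkbp4*, a co-chaperone of steroid receptors (-0.68), and *Atp6v1c1*, a subunit of the vesicle proton pump (-0.67). Each has a single probe set among those with 1 symbol. *Ciao2b* was the most variable, at 33.7 to 79.9 on the ipsilateral side against 95.5 to 115 on the contralateral side. On contralateral SNL L4 arrays *Sult1a1*, *Ciao2b*, *Aga* and *Mfap4* averaged 140, 69.9, 200 and 83.3. Their sham L4 means were 243, 105, 348 and 120 on contralateral and 141, 57.7, 208 and 60.4 on ipsilateral arrays. *Pmp2*, *Tagln*, *Secisbp2l*, *Synj1* and *Ogn* also averaged less there than on contralateral sham L4 arrays. *Serpinf1*, *Fkbp4* and *Atp6v1c1* had about the same mean or a higher one. Whether the falls came from the surgery was not tested.

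**Figure D3:**
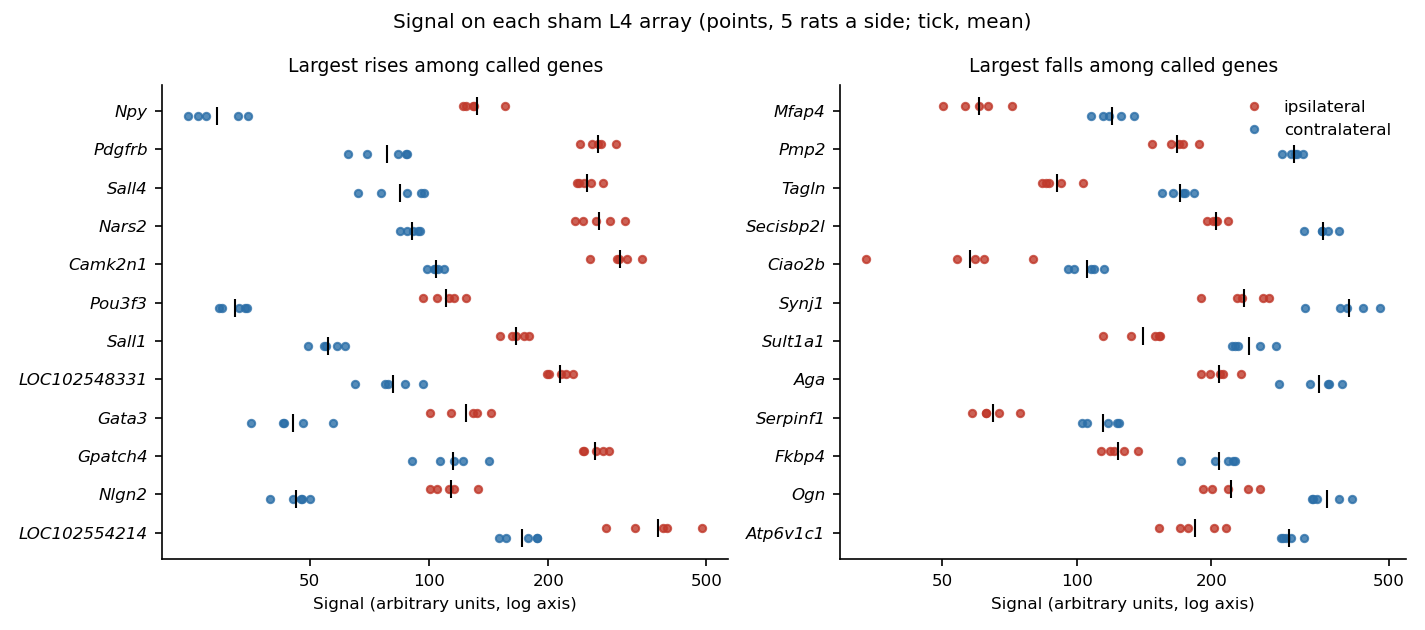
Signal of the 12 largest rises (left) and falls (right) on each sham L4 array, on a logarithmic axis, with ipsilateral points above contralateral ones in each row. Points are the 5 rats of a side and ticks are means; by the rule that chose these genes the sides overlap for none, and the rises, such as *Npy* at 122 to 155 against 24.7 to 34.8, span a wider gap than the falls.

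Counts of called members of a gene list are set against all genes, of which 12.8% were higher and 13.7% lower as deposited, 7.13% and 10.8% after quantile normalization, and 6.32% and 38% after median scaling. These shares do not allow for brightness. In the brightest quartile of probe sets with 1 symbol 12.1% were higher and 27.3% lower as deposited (10.3% and 14.9% after quantile normalization). The median signal of members was in that quartile for the matrix (158), myelin (317), unfolded protein response (220) and oxidative phosphorylation (839) lists. Many matrix genes of fibroblasts fell. Of 38 measured, 18 were lower and 2 higher as deposited, with a median log2 difference of -0.18 against 0.01 over all genes. After quantile normalization 20 were lower and 1 higher, and after median scaling 29 were lower and 2 higher. *Bgn*, the proteoglycan biglycan, fell by 0.56, *Lox*, the enzyme that cross-links collagen, by 0.54, *Col6a1* by 0.52 and *Dcn*, decorin, by 0.39. The abundant fibrillar collagens moved less. *Col1a1* fell by 0.22 on its brightest probe set, where the sides overlapped, and its other probe set was not called (0.08), while *Col3a1* (-0.13) and *Col1a2* (-0.04) were called only after quantile normalization. *Sparc*, a bright matrix protein of glia and fibroblasts, rose by 0.40 as deposited but had -0.06 after quantile normalization, so *Pdgfrb* was the 1 member higher on both. Summed over the list, signals were 14940 to 15331 on ipsilateral and 15067 to 16473 on contralateral arrays, which overlap.

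Myelin and Schwann cell genes split. Of 22 measured, 9 were lower and 5 higher, 8 were lower and 2 higher after quantile normalization, and 13 were lower and 2 higher after median scaling, beside 13.7%, 10.8% and 38% lower among all genes. Besides *Pmp2*, the falls included *Drp2*, a partner of periaxin in the myelin sheath (-0.51), *Cldn19*, a tight junction protein (-0.43), *Gjb1*, the gap junction protein connexin 32 (-0.38), and *Prx*, periaxin itself (-0.29). *Scn7a*, a sodium channel of non-myelinating Schwann cells, rose by 0.62 (0.27 after quantile normalization), and *Ngfr*, the low-affinity neurotrophin receptor, rose by 0.27 (0.22). *Mbp* (0.37) and *S100b* (0.33), both bright, were called higher as deposited only. Satellite glia genes were called higher for 6 of 15 and lower for 1, with 4 higher and 1 lower after quantile normalization and 1 higher and 3 lower after median scaling. The growth factor *Ptn* rose by 0.44, although the contralateral array of rat 1 (826) lay within the ipsilateral range of 771 to 874. *Fasn*, fatty acid synthase, rose by 0.40 on its brightest probe set and was called lower on the other (-0.34).

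Macrophage genes were called lower for 7 of 21 and higher for 1, with 5 and 1 after quantile normalization and 10 and 1 after median scaling, beside 13.7%, 10.8% and 38% lower among all genes. *Laptm5*, a lysosomal protein of blood cells, had 15.7 to 33.3 on the ipsilateral side against 34.7 to 72.1 on the contralateral side (log2 fold change -0.83), and its other probe set was not called. *Mrc1*, the mannose receptor of resident macrophages, fell by 0.47, *Aif1* by 0.45 and *Adgre1* by 0.30, whereas *C1qc*, a chain of complement C1q, rose by 0.48. *C1qa* (-0.04) and *C1qb* (-0.14), the other chains, were not called. Of 18 lymphocyte and natural killer genes 6 were higher and none lower (4 and 1 after quantile normalization), but 5 of those 6 had mean signals of at most 25.8 on either side, and called genes of such brightness were mostly higher on these arrays. The sixth, *Prf1*, perforin of cytotoxic cells, had 87.1, 66.9, 76.5, 76.8 and 61.9 on the ipsilateral side against 33.6, 25.9, 27.6, 29.2 and 31.5 on the contralateral side (log2 fold change 0.98, 0.88 after quantile normalization). Its contralateral mean was 19.1 in sham L5 and 81.3 in SNL L4. Of 13 neutrophil genes 5 were higher and 1 lower (1 and 1 after quantile normalization). Called on both scales were *S100a8*, at -0.39 (-0.29 after quantile normalization), and *Np4*, a defensin, at 0.55 (0.42).

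**Figure D4:**
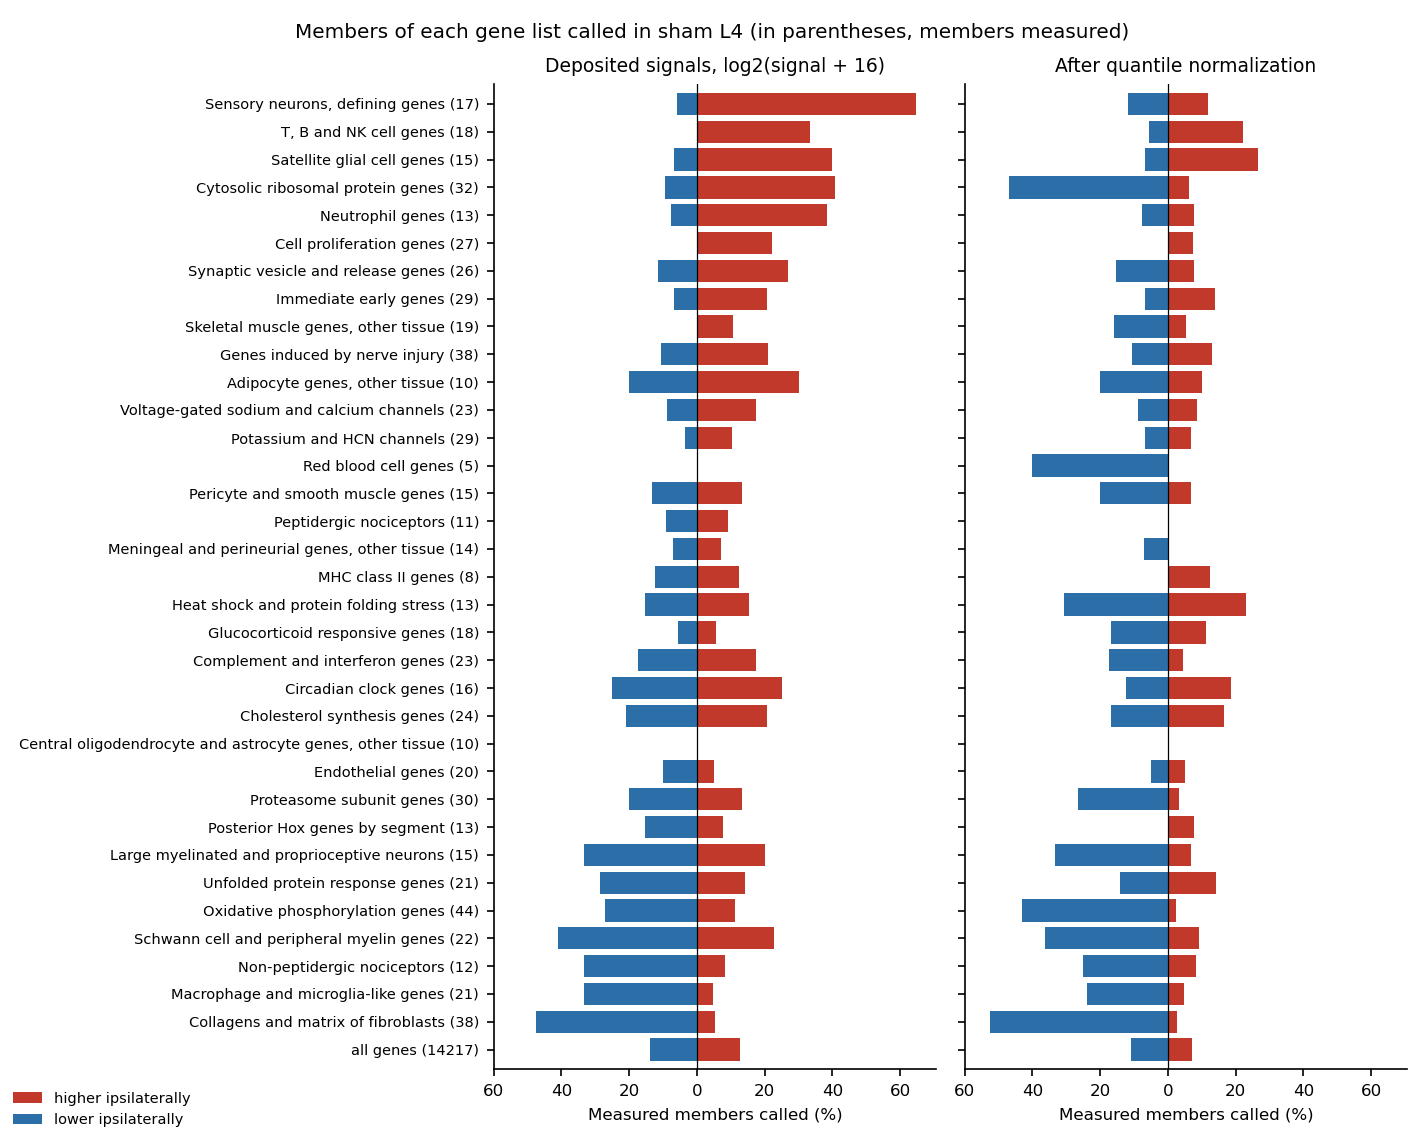
Share of the measured members of each of the 34 gene lists called higher (to the right) and lower (to the left) on the ipsilateral side of sham L4, on deposited signals and after quantile normalization, with all 14217 genes in the lowest row. The matrix list has 18 of 38 lower as deposited and 20 of 38 after normalization, while the ribosomal list changes from 13 of 32 higher to 15 of 32 lower.

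Neuronal genes depended on the scale. Of 17 defining genes of sensory neurons 11 were higher and 1 lower as deposited, 2 and 2 after quantile normalization, and 8 and 4 after median scaling. *Snap25*, of the vesicle fusion machinery, rose by 0.76 as deposited and by 0.17 after quantile normalization, and *Tubb3*, neuronal tubulin, rose by 0.64 and 0.39. The other probe set of *Tubb3*, with mean signals of 9.26 and 4.57, was not called (0.28). *Elavl4*, a neuronal RNA-binding protein of moderate signal, fell by 0.36 and 0.25. *Rbfox3* (-0.01), *Avil* (0.13) and *Isl1* (-0.15) were not called on either scale. The ribosomal list turned round, with 13 of 32 higher and 3 lower as deposited, 2 higher and 15 lower after quantile normalization, and 2 higher and 14 lower after median scaling, so no direction can be given for it.

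By class of neuron, of 15 measured genes of large myelinated afferents 5 were lower and 3 higher (5 and 1 after quantile normalization, 10 and 2 after median scaling). *Kcna1*, the potassium channel Kv1.1 beside the node of Ranvier, had 372, 298, 337, 364 and 373 on the ipsilateral side against 509, 540, 550, 513 and 574 on the contralateral side (log2 fold change -0.60, SE 0.06, adjusted p = 6.94e-06 from limma). *Ntrk3*, the receptor for neurotrophin 3, fell by 0.60 and *Runx3*, a factor of proprioceptive neurons, by 0.40. *Spp1*, osteopontin, fell by 0.31 and *Pvalb*, parvalbumin, by 0.16. *Necab2*, a calcium-binding protein, was the member that rose on both scales, at 40.7 ± 5.89 and 17.6 ± 2.11 (SD, n = 5, log2 fold change 0.75). Its other probe set, with mean signals of 5.46 and 6.61, was not called (-0.07). Markers of peptidergic nociceptors were mostly not called: *Tac1* (-0.11), *Trpv1* (-0.09) and *Scn10a* (-0.07) had no call on either scale, and *Calca*, the CGRP gene, was called higher as deposited (0.56) but had -0.04 after quantile normalization. Of 12 non-peptidergic genes 4 were lower, led by *Prkcq*, protein kinase C theta (-0.61), and 1 was higher, *Ret*, the receptor for GDNF family ligands, at 0.49. A dimmer probe set of *Ret* was called lower (-0.46) and the remaining one was not called (-0.10).

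Of the genes that nerve injury is known to induce, 8 of 38 were higher and 4 lower (5 and 4 after quantile normalization, 3 and 10 after median scaling). Among all genes 12.8% were higher and 13.7% lower (7.13% and 10.8%, 6.32% and 38%), so after median scaling the list had about the share of higher calls of all genes and a smaller share of lower ones. Besides *Npy* and *Vip*, the rises on both scales were *Stmn4*, a microtubule regulator (0.71), *Atf3*, the transcription factor most used as a marker of axon damage (0.39), and *Flrt3*, a membrane protein (0.27). *Atf3* averaged 109 on ipsilateral and 79 on contralateral arrays. Several classical members were not called on either scale, among them *Gal*, galanin (-0.03), *Sox11* (0.20), *Gadd45a* (0.19), *Jun* (0.09) and *Sprr1a* (0.24), which was dim at 7 and 3. The falls were *Star* (-1.0, at mean signals of 41 and 91), *Ccl2*, a chemokine (-0.47), *Timp1*, an inhibitor of matrix proteases (-0.38), and *Cacna2d1*. Of 29 immediate early genes 6 were higher and 2 lower (2 and 7 after median scaling), *Jund* by 0.62 and *Klf4* by 0.41 among the rises and *Zfp36*, which destabilizes cytokine messages, by 0.48 among the falls. The other probe sets of *Jund* were dim and not called. *Fos* (-0.13), *Egr1* (0.09) and *Dusp1* (0.05) were not called.

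Clock genes moved in both directions. *Npas2*, a partner of Bmal1, had 60.3, 80.9, 86.4, 76.3 and 90.5 on the ipsilateral side against 48, 40.7, 30.4, 42.1 and 33.4 on the contralateral side (log2 fold change 0.79). *Per3* (0.55) and *Hlf* (0.42) also rose, and *Dbp* (-0.51) and *Per2* (-0.28) fell, on both scales, among 16 measured. The other probe set of *Per3*, with mean signals of 17.5 and 14.2, was not called (0.08). Both sides of a rat were taken 4 weeks after surgery. The hour of collection is not known here. Of 44 oxidative phosphorylation genes 12 were lower and 5 higher (19 and 1 after quantile normalization, 29 and 2 after median scaling), with *Ndufa2* at -0.37 and *Uqcrc1* at 0.44. In the brightest quartile of probe sets with 1 symbol 27.3% were lower as deposited, about the share of this list. Of 27 proliferation genes 6 were higher and none lower, but 2 and none after quantile normalization and 2 higher and 3 lower after median scaling. The 2 that held on both scales were *Mki67*, at 130 ± 10 and 73.8 ± 6.17 (SD, n = 5, log2 fold change 0.70), and *Ccnb2* (0.68). On contralateral arrays of sham L5 and SNL L4 *Mki67* averaged 49.2 and 319, and *Npas2* averaged 23.8 and 118. For both genes these levels lay further apart than the sides of sham L4.

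Among lipid genes, *Scd2*, a fatty acid desaturase of myelinating cells, rose by 0.76 and *Acly*, ATP citrate lyase, by 0.42, both with smaller values of 0.30 and 0.23 after quantile normalization, while *Sqle*, squalene epoxidase, fell by 0.28. Of 24 measured genes of cholesterol and fatty acid synthesis 5 were higher and 5 lower (2 and 17 after median scaling). Of 21 unfolded protein response genes 3 were higher and 6 lower (3 and 3 after quantile normalization, 1 and 11 after median scaling): *Pdia4* (-0.43) and *Atf4* (-0.33) fell and *Calr*, calreticulin, rose by 0.34, which shrank to 0.11 after median scaling, where it was not called. The deposited share of lower calls was about that of the brightest quartile of probe sets with 1 symbol (27.3%). Among ion channels 6 of 23 sodium and calcium channel genes were called, close to the 26.5% of all genes, and 4 of 29 potassium and HCN channel genes. *Kcnd2*, the channel Kv4.2, rose by 0.57 (65.4 ± 7.25 and 38.8 ± 2.74, SD, n = 5), and *Scn2b*, a sodium channel subunit, was called higher at 0.34 although the sides overlapped. The other probe set of *Kcnd2* was not called (0.27). On contralateral arrays of sham L5 and SNL L4 *Kcnd2* averaged 27.1 and 155, further apart than the sides of sham L4.

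Genes of tissue around the ganglion were also counted, beside 12.8% higher and 13.7% lower among all genes. Of 19 skeletal muscle genes 2 were higher, *Tnnt1*, a slow muscle troponin, by 1.04 (47.4 ± 8.73 and 14.8 ± 4.16, SD, n = 5), and *Myh1* by 0.23 (0.09, not called, after quantile normalization), while *Ckm* (0.03) and *Acta1* (-0.11) were not called. Summed over these 19 genes the signal was 1743 to 1833 on ipsilateral and 1552 to 1693 on contralateral arrays. Of 10 fat genes 3 were higher, led by *Pck1* at 0.76, and 2 lower, led by *Fabp4* at -0.53, and the summed signals of 309 to 362 and 334 to 381 overlap. None of 10 central glia genes was called (none after quantile normalization either). *Ptgds*, prostaglandin D synthase of the meninges, fell by 0.39 (658 ± 44.1 and 865 ± 51.9, SD, n = 5). The part of adhering tissue in the other differences was not tested.

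The same side difference was measured in the L5 DRG of the same sham rats. There, 7058 genes were called (49.6%), of which 3045 were higher (21.4%) and 4013 lower (28.2%). Of the 1824 genes higher in sham L4 1185 were also higher in sham L5 (65.0% of the L4 list and 38.9% of the L5 list), and 75 were lower there. Of the 1950 lower in sham L4 1212 were lower in sham L5 (62.2% and 30.2%), and 50 were higher. Over 14217 genes the log2 differences of both segments had a Pearson correlation of 0.63 (0.51 after quantile normalization), as a description only, since the DRGs share the rats and, in both segments, the median array signal was higher ipsilaterally (34.9 to 36.6 on ipsilateral and 28.6 to 29.7 on contralateral L5 arrays).

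The segments nevertheless differed by the test of the difference itself. The L4 side difference minus the L5 side difference was called for 1770 genes (12.4%), with 1017 more positive (7.15%) and 753 more negative (5.3%) in L4, and after quantile normalization for 11.3% (6.45% and 4.84%). Array measures differed too. The log2 GAPDH ratio was 1.11 ± 0.11 on ipsilateral and 1.01 ± 0.09 on contralateral sham L5 arrays, with overlap (SD, n = 5). In sham L4 it was 1.72 and 1.29. The GAPDH 5′ probe set averaged 1220 and 895 in sham L5, against 896 and 945 in sham L4. The part of these measures in the differences between segments was not tested. *Npy* was close in both, at 1.71 in L4 and 1.92 in L5 (difference -0.21, adjusted p = 0.222 from limma), as was *Sall4* (1.42 and 1.43). *Vip* rose far more at L5, with 2.26 against 1.09 at L4 (difference -1.18, adjusted p = 7.15e-06 from limma). *Nars2* was also larger at L5 (1.96). *LOC102554214* rose at L4 and had 0.01 at L5, which was not called.

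The 12 falls were chosen for their size in sham L4, and for 11 of them the L4 difference was more negative than that of L5 (called in the test of the difference, on both scales). *Sult1a1* (0.01 in L5), *Synj1* (0.07) and *Ciao2b* (0.01) were not called in L5 at all. *Kcna1*, at -0.60 in L4 and 0.07 in L5, and *Ptgds*, at -0.39 in L4 but called higher in L5 at 0.40, differed in the same test (adjusted p = 2.28e-06 and 9.19e-08 from limma). In the other direction *Uqcc1*, an assembly factor of respiratory complex III, rose by 0.46 in L4 and fell by 0.49 in L5, and *Vgf*, a neuropeptide precursor, had 0.27 (not called) in L4 and fell by 0.77 in L5. *Myocd*, a cofactor of smooth muscle genes, had 0.16 (not called) in L4 and rose by 1.48 in L5. Only *Uqcc1* was called in both segments with opposite signs among these 3. Its other probe set was not called in L4 (0.19).

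The side difference at L4 was also measured in the rats whose neighbouring L5 nerve was ligated. In SNL L4, whose arrays and rats are distinct from those of sham L4, 2994 genes were called (21.1%), 1568 higher (11%) and 1426 lower (10%). Of the 1824 genes higher in sham L4 416 were higher in SNL L4 (22.8% and 26.5% of the lists) and 165 were lower. Of the 1950 lower in sham L4 430 were lower in SNL L4 (22.1% and 30.2%) and 185 were higher. The log2 differences of sham L4 and SNL L4 had a Pearson correlation of 0.27 over the 14217 genes (0.25 after quantile normalization), again as a description, since genes are not independent. The sham L4 difference minus the SNL L4 difference was called for 2373 genes (16.7%), 1102 more positive (7.75%) and 1271 more negative (8.94%) in sham rats, and after quantile normalization for 14.3% (6.73% and 7.56%).

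For 11 of the 12 rises, chosen for their size in sham L4, the sham difference was the larger one on deposited signals, and for 6 of them on both scales. *Sall1* rose by 1.34 in sham and had 0.21 (not called) in SNL L4. *Gata3* had 1.19 in sham and 0.06 (not called) in SNL L4, and *Nars2* had 1.41 and -0.10 (not called). The differences of these 3 were called (adjusted p = 1.94e-08, 0.00344 and 1.12e-10 from limma). Contralateral means of *Sall1*, *Gata3* and *Nars2* were 164, 151 and 320 in SNL L4, against 55.7, 45.3 and 90.4 in sham L4. Ipsilateral sham L4 means were 166, 124 and 268. The cohorts thus differed in the contralateral level of these genes, and the reason was not tested. *Ret* rose by 0.49 in sham L4 and fell by 0.50 in SNL L4.

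Matrix genes differed between the cohorts. In SNL L4 16 of the 38 were higher and 1 lower, beside 11% higher and 10% lower among all genes, and the test of the difference called 20 of the 38 more negative and 2 more positive in sham rats. *Col1a1* fell by 0.22 in sham L4 and rose by 1.22 in SNL L4 (difference -1.44, adjusted p = 3.63e-10 from limma). *Col6a1* fell by 0.52 and rose by 0.83, and *Ccn2*, a matrix-associated growth factor, fell by 0.47 and rose by 1.06. Contralaterally, *Col1a1*, *Col6a1* and *Ccn2* averaged 1181, 205 and 214 in sham L4 but 728, 123 and 108 in SNL L4. Ipsilateral SNL L4 means were 1724, 231 and 245, so part of the difference lay on the contralateral side. *Zfp36* fell by 0.48 in sham L4 and rose by 0.85 in SNL L4. In sham L5 21 of the 38 were lower and 5 higher, beside 28.2% lower and 21.4% higher among all genes there, and the L4 difference was called more negative for 7 members and more positive for 5.

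*S100a8*, a calcium-binding protein of neutrophils, had the largest difference between the cohorts among genes chosen for that difference. It fell by 0.39 in sham L4, with 141 ± 17.5 on ipsilateral and 189 ± 5.36 on contralateral arrays (SD, n = 5), rose by 0.80 in sham L5 and fell by 3.52 in SNL L4. In SNL L4 *S100a8* averaged 34.7 on ipsilateral and 563 on contralateral arrays. *Np4* rose by 0.55 in sham L4, with 55.5 on ipsilateral and 33.1 on contralateral arrays. It fell by 0.96 in SNL L4, with 79.5 and 171, so its ipsilateral level there was above both sides of sham L4. *C10h5orf15* (-0.23 in sham, -2.25 in SNL L4) and *Vamp2*, a vesicle protein (-0.15, not called, and -1.72), differed as well. The GAPDH ratio was 2.35 ± 0.12 on ipsilateral and 1.40 ± 0.06 on contralateral SNL L4 arrays (SD, n = 5), a wider gap than in sham L4, and its part in these differences was not tested.

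**Figure D5:**
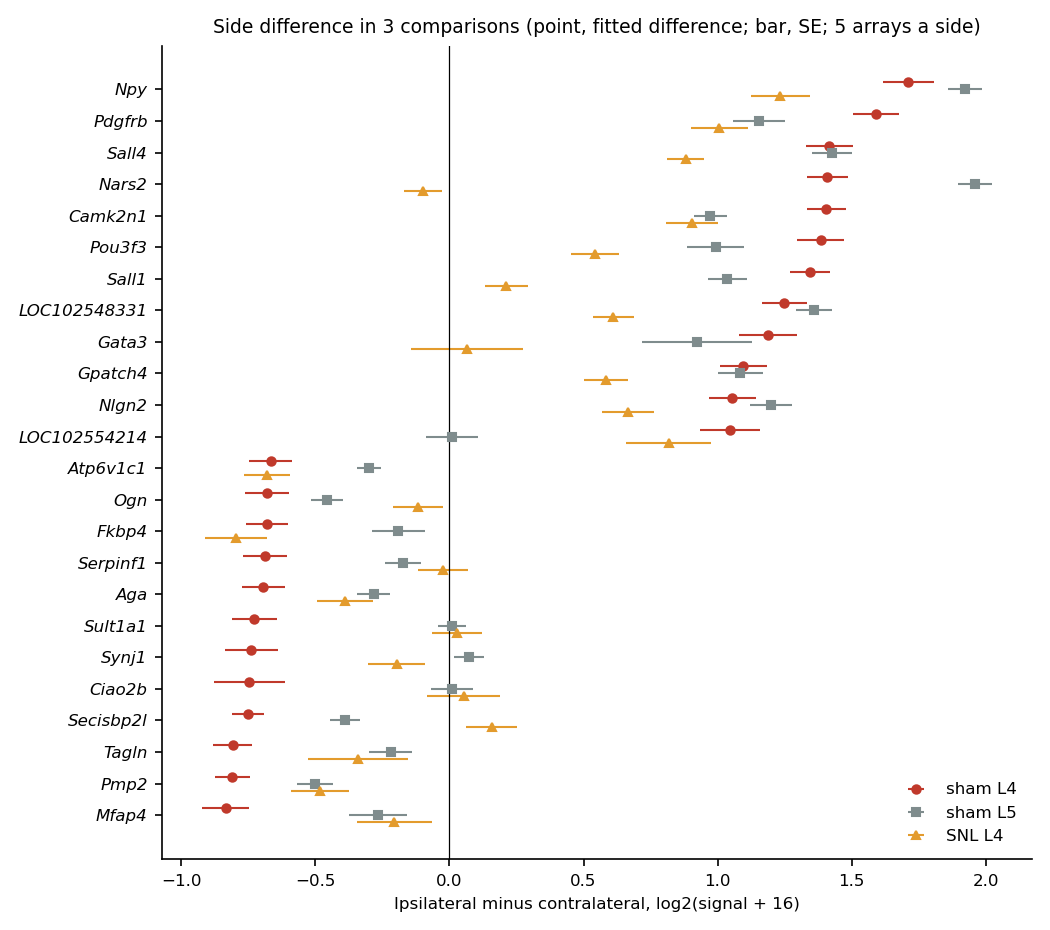
Ipsilateral minus contralateral log2 difference of the 12 largest rises and 12 largest falls of sham L4 in sham L4, sham L5 and SNL L4, with SE bars from 5 arrays a side. *Npy* lies at 1.71, 1.92 and 1.23, and the differences of *Sult1a1*, *Synj1* and *Ciao2b* are within 0.07 of 0 in sham L5.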

How the data were processed

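RNA of single DRGs was hybridized to Affymetrix Rat Genome 230 2.0 arrays, 1 array per DRG, 5 per group. The deposited values are linear signal intensities that the authors computed with MAS5 (version unknown here) and scaled so that the mean, with 2% trimmed at each end, is 99.99 on every array. Of 31099 probe sets 57 controls were left out and 31042 tested. Symbols came from the platform annotation: 20826 probe sets have 1 symbol (20758 updated through RefSeq), 436 several and 9780 none listed here. A gene was represented by its brightest probe set over 40 arrays, whichever way its other probe sets moved, since levels of different probe sets cannot be compared.

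Groups were taken from the labels. limma 3.58.1 in R 4.3.3 was fitted to log2(signal + 16) of the 10 sham L4 arrays with an intensity trend, with Benjamini-Hochberg adjustment over all probe sets. Calls over genes use these p-values. Differences between comparisons were tested in fits of 20 arrays without a rat term, although sham L4 and sham L5 share their rats. For the difference from sham L5 3828 probe sets were called, and 3560 with the rat as a block. For that from SNL L4 the counts were 4347 and 4301. Tables were made with Python 3.11.15 and pandas 2.3.3, and the fit was tested on simulated data.

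Members and gene lists were chosen with earlier results of these data known. Named genes were the 12 largest rises and 12 largest falls, among 1073 genes called in one direction on deposited and quantile-normalized signals, with a mean signal above the median of all genes (65.8) and sides that did not overlap. Also named were at most 2 members of each list called in one direction on both scales, without the conditions on signal and overlap. The 4 and 4 largest differences from sham L5 and from SNL L4, and tissue markers, were named too. Other list members in the text were chosen after their values were seen. Promoter motifs and the 5S rRNA and ratb control probe sets were also chosen after seeing the data.

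Rat numbers pair both sides of a rat, as the numbers are those of the animals. Deviations from the side means correlated weakly within rats (r = 0.095, 0.089, -0.047, 0.082 and 0.037), and the main design has no block. The highest correlation with another rat was 0.1025, 0.0612, 0.0821, 0.1018 and 0.1608, so only rat 14 had its highest value within the rat. Alternatives were quantile normalization, median scaling, offsets of 1 and 64, a mean signal of at least 50, no trend, the replicate block, covariates, the t-test of the methods, all 8 groups in 1 fit, and leaving out each array.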

Additional observations from a re-analysis of the deposited data

Results flagged for a closer look

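In all, 4 signals lay apart from the other 4 arrays of their side by Dixon's test, which marks about 1 group in 20 by chance. These were *Npy* on the ipsilateral array of rat 17 (155.5), *Serping1* on the ipsilateral array of rat 23 (214.7), *Rpl21* on the contralateral array of rat 17 (1236.4) and *Ccn2* on the contralateral array of rat 1 (227.3). No explanation was tested.

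Control probe sets that enter no gene comparison were higher on the ipsilateral side. The 5S rRNA probe set averaged 327.6 on ipsilateral and 134.8 on contralateral arrays, and 2 further control probe sets of the array, ratb1 and ratb2, averaged 480.4 and 29.31 on ipsilateral and 243.2 and 12.58 on contralateral arrays. The sides did not overlap for any of the 3.

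The side difference of some named genes in sham L4 differed from that in sham L5 by the test of the difference (limma). It was lower in sham L4 (log2 difference of the differences) for *Snrk* (-1.81), *Myocd* (-1.32), *S100a8* (-1.19), *Vip* (-1.18), *Pank2* (-1.15), *Adipoq* (-0.85), *Synj1* (-0.81), *Ptgds* (-0.79), *Ciao2b* (-0.76), *Sult1a1* (-0.74), *Kcnd2* (-0.68), *Kcna1* (-0.67), *Cacna2d1* (-0.66), *Tagln* (-0.59), *Ccn2* (-0.58), *Elavl4* (-0.57), *Mfap4* (-0.57), *Nars2* (-0.55), *Serpinf1* (-0.52), *C10h5orf15* (-0.50), *Fkbp4* (-0.49), *Ndufa2* (-0.44), *Mki67* (-0.43), *Aga* (-0.41), *Atp6v1c1* (-0.37), *Secisbp2l* (-0.36) and *Pmp2* (-0.31). It was higher in sham L4 for *Mx2* (1.07), *Vgf* (1.04), *LOC102554214* (1.04), *Uqcc1* (0.96), *Tnnt1* (0.78), *Uqcrc1* (0.62), *Pdgfrb* (0.44), *Camk2n1* (0.43), *Hoxa9* (0.33), *Sall1* (0.31) and *Fasn* (0.30). *Snrk* was variable, at 22.3 to 111 on ipsilateral and 40.2 to 137 on contralateral sham L4 arrays. In sham L5 its ipsilateral arrays averaged 101 ± 63.6 (SD, n = 5). Its difference had an adjusted p of 0.022 (limma), and its other probe set was not called in sham L4.

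Against SNL L4 the sham L4 difference was lower for *Ccn2* (-1.53), *Col1a1* (-1.44), *Col6a1* (-1.35), *Zfp36* (-1.33), *Secisbp2l* (-0.91), *Sult1a1* (-0.76), *Myocd* (-0.71), *Fabp4* (-0.69), *Pdia4* (-0.69), *Serping1* (-0.69), *Serpinf1* (-0.66) and *Ogn* (-0.56). It was higher for *S100a8* (3.13), *C10h5orf15* (2.03), *Vamp2* (1.57), *Np4* (1.51), *Nars2* (1.51), *Sall1* (1.13), *Gata3* (1.12), *Ret* (0.99), *Pou3f3* (0.84), *Uchl1* (0.82), *Acly* (0.77), *Snap25* (0.73), *Scn2b* (0.66), *LOC102548331* (0.64), *Scn7a* (0.55), *Kcnd2* (0.55), *Gpatch4* (0.51), *Scd2* (0.49), *Hoxa9* (0.44) and *Tubb3* (0.36). Many of these genes were chosen for a large difference in sham L4 or between the comparisons, so the sizes are descriptions.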

How the results depend on the processing

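The count of 8413 called probe sets in sham L4 (5355 higher, 3058 lower) became 5018 (1982 higher) with a mean signal of at least 50 required, and 3774 (1824 higher and 1950 lower) with 1 probe set a gene. It was 4560 (3030 higher and 1530 lower) at an adjusted p under 0.01, and 1594 (1488 higher and 106 lower) with at least 1.5-fold required. The methods' t-test at p under 0.001 gave 2995 on log2 values (2070 higher and 925 lower) and 2908 on linear signals (1948 higher and 960 lower), and 6907 on log2 values after Benjamini-Hochberg adjustment. Quantile normalization left 2803 higher, and median scaling left 3152 higher and 8552 lower. With the GAPDH ratio as a covariate 118 were called (106 higher and 12 lower), and with the bacterial control level 16 (15 higher and 1 lower). Both measures separate the sides, so these fits have little left to estimate side from, and the median SE was 0.292 and 0.44, against 0.114 without a covariate.

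Leaving out 1 array at a time gave 6368 to 8105 called probe sets, 4098 to 5236 higher and 2270 to 3188 lower. For the difference from sham L5 it gave 3183 to 4121 and for that from SNL L4 3631 to 4485. The ipsilateral minus contralateral difference of the GAPDH 5-prime signal was -48.89 (exact permutation test, two-sided, p = 0.0873), and leaving out 1 array gave -67.04 (without contralateral rat 1, where it passed the threshold) to -37.66. With rat as a replicate block 8672 probe sets were called (5458 higher and 3214 lower), and all 77 named genes called in sham L4 kept their call.

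Of these 77 genes 8 lost their call after median scaling, 3 after quantile normalization, 66 with the GAPDH covariate and all 77 with the bacterial covariate. Values that changed sign were *Uchl1* after quantile normalization (-0.00401), *Hspa1a* (0.0398), *Hspb8* (0.0022) and *Np4* (-0.00974) with the GAPDH covariate, and *Ddit4* (-0.52), *Hspa1a* (0.0701), *Np4* (-0.0672), *Psmd4* (-0.0576) and *C10h5orf15* (0.0516) with the bacterial covariate. The cause was not tested.

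With 5 arrays a side the smallest two-sided exact p is 0.00794. The number of arrays limits the precision, and dim signals, at which the offset of 16 governs the fold change, are least certain.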
